A study of Rattus norvegicus with 19 samples.

Results

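The subject is a difference in the RNA of glial and other genes among 19 bulk RNA sequencing libraries of rat spinal cord cultures. The libraries were chosen by their level of Mbp, which encodes myelin basic protein: 11 of them stood above 100 FPKM and the other 8 below 20 FPKM. FPKM counts fragments per kilobase of a transcript, scaled to 1e+06 fragments of the library. The sets are called myelin-rich and myelin-poor here. They rest on measured values, they are not groups of the study, and no label describes them. Every gene of this contrast therefore counts as used in drawing the sets, and the differences between them are descriptions with no test.

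The study took ventral spinal cord from embryonic day 14 wild type Sprague-Dawley rats, grew it as primary culture and exposed the cultures for 90 min. The groups were polyP (long-chain synthetic polyphosphate, 100 μM, 5 libraries), mutSOD1-ACM (medium conditioned by astrocytes with human SOD1 carrying the G93A change, 5 libraries), wtSOD1-ACM (the same with wild-type human SOD1, 4 libraries) and untreated control (5 libraries). The astrocytes came from newborn transgenic mice (postnatal day 1 to 2), and the promoter of the transgene is not given in the sources used here. All cultures shared serum-containing growth medium with chick leg extract, and their age is given as 4 or 7 days in vitro in different labels and as a range of 7 to 9 days in the growth protocol. Medium of non-transgenic astrocytes was not analysed here. Per the labels, RNA was drawn from separate cultures, and whether the cultures came from separate litters or preparation days is not stated. P-values therefore measure the spread between these libraries only.

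Myelin is the multilayered membrane that oligodendrocytes wrap around axons in the central nervous system and that Schwann cells make in peripheral nerve. Oligodendrocytes arise from migrating precursors that carry the receptor Pdgfra, pass through a short premyelinating stage marked by Gpr17 and Bcas1, and then switch on the genes of compact myelin. In the embryonic spinal cord the first precursors come from a ventral progenitor domain that also gives rise to motor neurons.

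Both sets held libraries of every treatment. The 11 myelin-rich libraries were replicates 1 to 3 of polyP, 1 to 3 of mutSOD1-ACM, 1 and 2 of wtSOD1-ACM and 1 to 3 of control. The 8 myelin-poor ones were replicates 4 and 5 of polyP, 4 and 5 of mutSOD1-ACM, 3 and 4 of wtSOD1-ACM and 4 and 5 of control. In each treatment the myelin-poor libraries thus carry the highest replicate numbers. Whether the numbers mark another preparation or another age in vitro is not stated, and neither can be told apart from the set in any difference given here. Relative depth, recovered from 97 rarely detected genes, ran from 0.619 to 1.27 in myelin-rich libraries (median 0.788) and from 0.954 to 1.33 in myelin-poor libraries (median 1.03). Genes at an FPKM of 1 or more numbered 11309 to 11723 in myelin-rich and 11407 to 11566 in myelin-poor libraries. Pearson's r across genes, on the log2 scale, ran from 0.95 to 0.997 within the myelin-rich set, from 0.976 to 0.996 within the myelin-poor set and from 0.946 to 0.982 between them. Absolute depth is unknown, so low FPKM carry a counting error of unknown size. Neuronal RNA was present throughout, with Snap25, a synaptic vesicle fusion protein, at 79.6 to 118 FPKM in myelin-rich and 114 to 131 FPKM in myelin-poor libraries. Defining genes of motor neurons were nearly absent from both sets, with Mnx1 at no more than 0.14 FPKM, Isl1 at no more than 0.45 FPKM and Chat at no more than 1.34 FPKM.

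Mbp itself drew the sets and shows how far apart they lie. In myelin-rich libraries it stood at 216, 212 and 328 FPKM with polyP, 169, 177 and 332 FPKM with mutSOD1-ACM, 292 and 335 FPKM with wtSOD1-ACM, and 171, 372 and 348 FPKM in controls. In myelin-poor libraries it stood at 9.61 and 7.94 FPKM with polyP, 8.36 and 6.79 FPKM with mutSOD1-ACM, 7.04 and 6.54 FPKM with wtSOD1-ACM, and 7.82 and 9.62 FPKM in controls. No library fell between 9.62 and 169 FPKM, the values next to the thresholds. The myelin-rich libraries themselves were of 2 kinds, with 5 at 169 to 216 FPKM and 6 at 292 to 372 FPKM.

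Across all 11887 genes tested, 122 (1.03%) were at least 2-fold higher in the myelin-rich set with no overlap between the 11 and the 8 values, and 20 (0.168%) were at least 2-fold lower. The lower count became 31 without polyP replicate 4, 33 without control replicate 2, 49 with a pseudocount of 0.1 and 13 after scaling by the median of ratios. Every count of genes 2-fold apart on a list below requires no overlap as well. The fold is on the scale of log2(FPKM + 1) with the treatment group kept as a term, which understates the difference of low genes. Without a limit on size, 655 genes (5.51%) lay higher with no overlap and 948 (7.98%) lay lower. That balance depends on scaling: 40.9% of the genes without overlap were higher in the FPKM as deposited, 58.0% (876 against 635) after scaling by the median of ratios, 54.4% (748 against 626) at equal summed FPKM and 47.7% (796 against 873) after quantile normalization. The median difference over all genes was -0.03 on the log2 scale. Among the 122 higher genes the median difference was 1.36, and among the 20 lower ones -1.18. Oligodendrocyte lists held 23 of the 122 and the microglia list 10, while 82 were on no list.

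The genes with the largest differences were mostly genes of oligodendrocytes. Mag, the myelin-associated glycoprotein of the membrane facing the axon (gene identifier 29409), ran from 10.4 to 30.6 FPKM with a median of 18.8 FPKM in myelin-rich libraries and from 0.18 to 0.44 FPKM with a median of 0.275 FPKM in myelin-poor libraries. No library of one set reached the other. The log2 difference was 3.82 for Mag, against 4.86 for Mbp. The difference was present in each treatment group, with Mag at 3.60 in polyP, 3.62 in mutSOD1-ACM, 4.16 in wtSOD1-ACM and 3.96 in control cultures.

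Mag, Cnp and Cldn11 differed by at least 2-fold together, and the promoter stretches of these 3 are shown. SOX factors such as Sox10 act on myelin genes, and their part in these differences was not tested. Each is the 250 bases before the transcription start in RefSeq (build GRCr8), written 5′ to 3′ on the gene's strand. Mag lies at chr1:95291045-95291294 on the minus strand, Cnp at chr10:86011254-86011503 on the plus strand and Cldn11 at chr2:114149540-114149789 on the minus strand. Capitals mark ACAAAG or its reverse complement CTTTGT, a core bound by SOX proteins, searched on both strands.
Mag: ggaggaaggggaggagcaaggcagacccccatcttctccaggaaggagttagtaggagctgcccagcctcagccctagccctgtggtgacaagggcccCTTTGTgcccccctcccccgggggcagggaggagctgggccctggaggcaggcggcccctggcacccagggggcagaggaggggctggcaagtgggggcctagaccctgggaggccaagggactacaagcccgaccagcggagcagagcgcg
Cnp: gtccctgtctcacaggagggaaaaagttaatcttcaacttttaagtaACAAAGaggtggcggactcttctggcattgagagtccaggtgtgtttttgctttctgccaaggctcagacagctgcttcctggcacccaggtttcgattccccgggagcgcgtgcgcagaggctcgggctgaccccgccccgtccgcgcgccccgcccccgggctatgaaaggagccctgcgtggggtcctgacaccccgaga
Cldn11: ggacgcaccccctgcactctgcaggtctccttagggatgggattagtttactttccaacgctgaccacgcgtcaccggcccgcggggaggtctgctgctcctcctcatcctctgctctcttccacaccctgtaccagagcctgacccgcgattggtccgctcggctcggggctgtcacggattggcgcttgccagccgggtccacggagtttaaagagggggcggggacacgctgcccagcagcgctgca
The motif stood once in the Mag window and once in the Cnp window, and these letters were not in the Cldn11 window, nor in that of Gpr17, which is not shown. It stood in 1106 (11.5%) of the 9586 windows of all genes tested that had one. A match is a stretch of letters and not a bound site. A share over the 122 higher genes is void, since only 87 of them had a window, a smaller part than among all genes tested.

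Genes of myelin proteins and enzymes of mature oligodendrocytes did not all follow Mbp. Of 22 tested genes on that list, 11 were at least 2-fold higher without overlap and 0 lower, and the list's median log2 difference was 0.99 against -0.03 for all genes. The shares over all genes tested were 1.03% higher and 0.168% lower, here and for the lists that follow. Cldn11 (84588), the tight-junction protein of myelin, ran from 9.35 to 19.9 FPKM (median 14.2) in myelin-rich and from 0.88 to 1.37 FPKM (median 1.19) in myelin-poor libraries. Cnp (25275), the enzyme of non-compact myelin, ran from 90.5 to 162 FPKM (median 133) in myelin-rich and from 21.7 to 39.4 FPKM (median 25.5) in myelin-poor libraries. Both genes separated the sets completely. Myrf, the transcription factor needed to start myelin gene expression, differed by 1.98, and 3 enzymes of myelin glycolipid synthesis did likewise, with Gal3st1 at 1.94, Ugt8 at 1.89 and Fa2h at 1.60.

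Other genes of late myelin were not higher. Mog, the oligodendrocyte glycoprotein of the outermost myelin layer, ran from 10.8 to 14.1 FPKM in myelin-rich and from 14.3 to 16.4 FPKM in myelin-poor libraries, so that every myelin-rich value lay below every myelin-poor one, by 0.21 on the log2 scale. Mobp, a basic protein of compact myelin, ran from 0.51 to 1.24 FPKM in myelin-rich and from 0.75 to 1.24 FPKM in myelin-poor libraries. Mal and Opalin, expressed late in myelination, reached no more than 0.14 and 0.22 FPKM in any library and were not tested. The label myelin-rich thus holds for Mbp, Mag, Cnp and Cldn11 and not for Mog, Mobp, Mal or Opalin.

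Earlier stages of the lineage were higher as well. Of 13 tested genes of newly formed oligodendrocytes, 6 were at least 2-fold higher and 0 lower (median 0.70). Gpr17 (767613), the receptor that marks premyelinating cells, ran from 32.2 to 63.0 FPKM (median 54.2) in myelin-rich and from 3.84 to 7.70 FPKM (median 5.18) in myelin-poor libraries. Bcas1 (246755), a marker of early myelinating cells, ran from 67.0 to 124 FPKM (median 101) in myelin-rich and from 13.6 to 20.7 FPKM (median 14.8) in myelin-poor libraries. Enpp6, a choline phosphodiesterase of cells that are just starting to differentiate, ran from 3.14 to 7.84 FPKM in myelin-rich and from 0.08 to 0.41 FPKM in myelin-poor libraries. None of these 3 genes overlapped. Nkx2-2, a homeodomain factor of the lineage, differed by 1.36.

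Of 18 tested precursor genes and lineage factors, 6 were at least 2-fold higher without overlap and 0 lower, with a median of 0.70. Pdgfra (25267), the growth factor receptor of precursors, ran from 15.0 to 32.7 FPKM (median 23.6) in myelin-rich and from 4.41 to 6.64 FPKM (median 5.27) in myelin-poor libraries. Sox10 (29361), a transcription factor of the whole lineage and of Schwann cells, ran from 25.5 to 70.7 FPKM (median 53.0) in myelin-rich and from 6.58 to 18.3 FPKM (median 9.21) in myelin-poor libraries. Olig2, the bHLH factor that specifies the lineage, ran from 23.5 to 45.6 FPKM in myelin-rich and from 9.17 to 22.0 FPKM in myelin-poor libraries. All 3 kept the sets apart, Olig2 by a narrow gap. Matn4 differed by 1.66 and Cspg4, the NG2 proteoglycan of precursors, by 1.31. Olig1 differed by 0.63 with overlapping sets. In bulk samples, fewer cells of a type and less RNA per cell cannot be told apart.

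**Figure D1:**
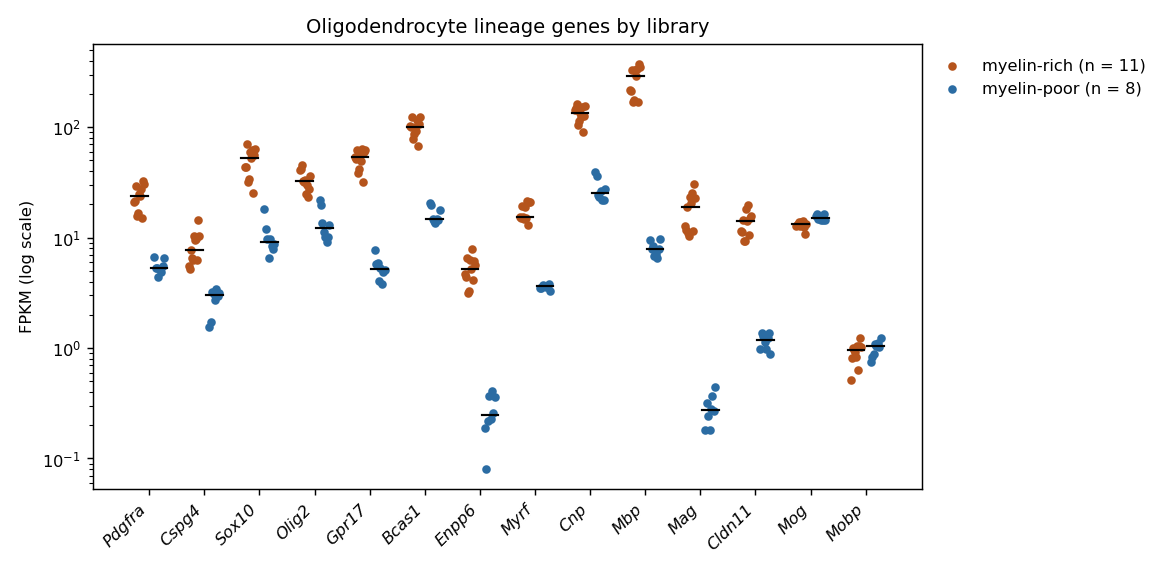
FPKM (log axis) of 14 oligodendrocyte lineage genes in each library, ordered from precursor to mature genes, with the 11 myelin-rich libraries left of the 8 myelin-poor ones and a bar at each set's median. Mag runs from 10.4 to 30.6 FPKM in myelin-rich and from 0.18 to 0.44 FPKM in myelin-poor libraries, while Mog and Mobp stand near the same level in both.

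Microglia, the resident macrophages of the central nervous system, went the same way. All 22 tested genes of microglia and macrophages were higher on average, with a median of 1.27. Of these, 10 were higher by at least 2-fold without overlap and 0 lower, against 1.03% and 0.168% of all genes. The summed level of the 24 genes of the list ran from 180 to 1082 FPKM in myelin-rich and from 127 to 158 FPKM in myelin-poor libraries. C1qa (298566), a chain of the first complement component, ran from 11.7 to 87.9 FPKM (median 27.3) in myelin-rich and from 4.59 to 7.59 FPKM (median 5.36) in myelin-poor libraries. C1qc differed by 2.08, C1qb by 1.87 and Laptm5, a lysosomal protein of blood-derived cells, by 1.68.

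Other microglial genes overlapped between the sets at the low end of the myelin-rich range. Cx3cr1, the fractalkine receptor, ran from 3.20 to 32.8 FPKM (median 11.2) in myelin-rich and from 2.95 to 5.09 FPKM (median 3.89) in myelin-poor libraries. Aif1, the actin-bundling protein IBA1, ran from 9.41 to 57.3 FPKM (median 19.7) in myelin-rich and from 5.26 to 8.67 FPKM (median 7.51) in myelin-poor libraries, without overlap. Cd163 and Cd74, which mark other macrophages and antigen-presenting cells, reached no more than 0.01 and 0.47 FPKM. The part of microglia in the oligodendrocyte result was not tested.

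Astrocyte genes were split. Of 23 tested, 3 were at least 2-fold higher and 0 lower (median 0.29), namely S100b at 1.49, Apoe at 1.39 and the glutamate transporter Slc1a2 at 1.03. S100b is also on the Schwann cell list, and Apoe is also made by microglia. Aqp4, the water channel of astrocyte endfeet, ran from 9.70 to 15.9 FPKM (median 12.5) in myelin-rich and from 5.45 to 7.50 FPKM (median 6.68) in myelin-poor libraries, without overlap. Gfap, the intermediate filament of astrocytes, ran from 18.6 to 45.5 FPKM in myelin-rich and from 12.9 to 26.3 FPKM in myelin-poor libraries, with overlap. Of 15 radial glia and progenitor genes 0 were 2-fold apart, and Sox2, which maintains progenitors, overlapped at 36.5 to 70.2 FPKM in myelin-rich and 29.5 to 62.2 FPKM in myelin-poor libraries.

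Genes of Schwann cells and neural crest showed 4 of 16 tested at least 2-fold higher and 0 lower (median 0.38), and Mbp, Sox10 and S100b were among those 4. Each of these is also expressed in oligodendrocytes or astrocytes. Pmp22 separated the sets as well, at 67.3 to 111 FPKM in myelin-rich and 48.6 to 59.5 FPKM in myelin-poor libraries. The list differed between the 2 kinds of myelin-rich library, with a median of -0.06 for the 5 with less Mbp and 0.99 for the 6 with more. Fibroblast and meningeal genes had 1 of 19 at least 2-fold higher without overlap and 0 lower (median 0.29), and that gene was Pdgfra. Igf2 (1.24), Postn (1.07) and Dcn (1.05) had overlapping sets, and each was high in only 1 kind of myelin-rich library. Igf2 (128 to 156 FPKM) and Dcn (23.2 to 29.7 FPKM) were high in the 5 with less Mbp. Postn (102 to 157 FPKM) was high in the 6 with more. In the other kind Igf2 and Dcn lay near the myelin-poor range and Postn below it.

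Neuronal genes stood slightly lower on average, and none was 2-fold apart in either direction on the lists of 24 pan-neuronal genes (median -0.12), 12 motor neuron and cholinergic genes (-0.21), 16 genes of inhibitory neurons (-0.24), 9 of excitatory interneurons (-0.25), 18 of young neurons (-0.14) and 19 of mature channels and synapses (-0.19). These medians kept their sign under every scaling tried, while the number of genes without overlap was 0 to 2 per list in each direction. The share without overlap over all genes tested was 5.51% higher and 7.98% lower. Rbfox3, the nuclear antigen NeuN, ran from 28.0 to 38.3 FPKM in myelin-rich and from 34.1 to 43.3 FPKM in myelin-poor libraries. Nefh, the heavy neurofilament chain, ran from 2.56 to 4.30 FPKM in myelin-rich and from 3.80 to 4.96 FPKM in myelin-poor libraries. Both overlapped between the sets. Uchl1 (-0.37) and Celf4 (-0.37) lay lower without overlap, whereas Map2, a dendritic microtubule protein, was higher by 0.40 with overlap.

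Particular neuronal classes had a few separated genes. With 7.98% of all genes tested lower without overlap, such single genes do not mark a difference of a class. Gata3, a factor of a ventral inhibitory interneuron class, ran from 2.52 to 3.90 FPKM in myelin-rich and from 5.17 to 6.47 FPKM in myelin-poor libraries. Pax2, a factor of inhibitory interneurons, ran from 19.5 to 29.1 FPKM in myelin-rich and from 34.4 to 39.8 FPKM in myelin-poor libraries. Lhx4, a motor neuron factor, differed by -0.61. Nrgn, a postsynaptic calmodulin-binding protein, lay lower by 0.76 and Ncam2, an adhesion molecule, higher by 0.57, each without overlap. Of 25 cell cycle genes 0 were 2-fold apart (median 0.15), with Mki67 higher by 0.39 and Aurka lower by 0.51 without overlap.

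**Figure D2:**
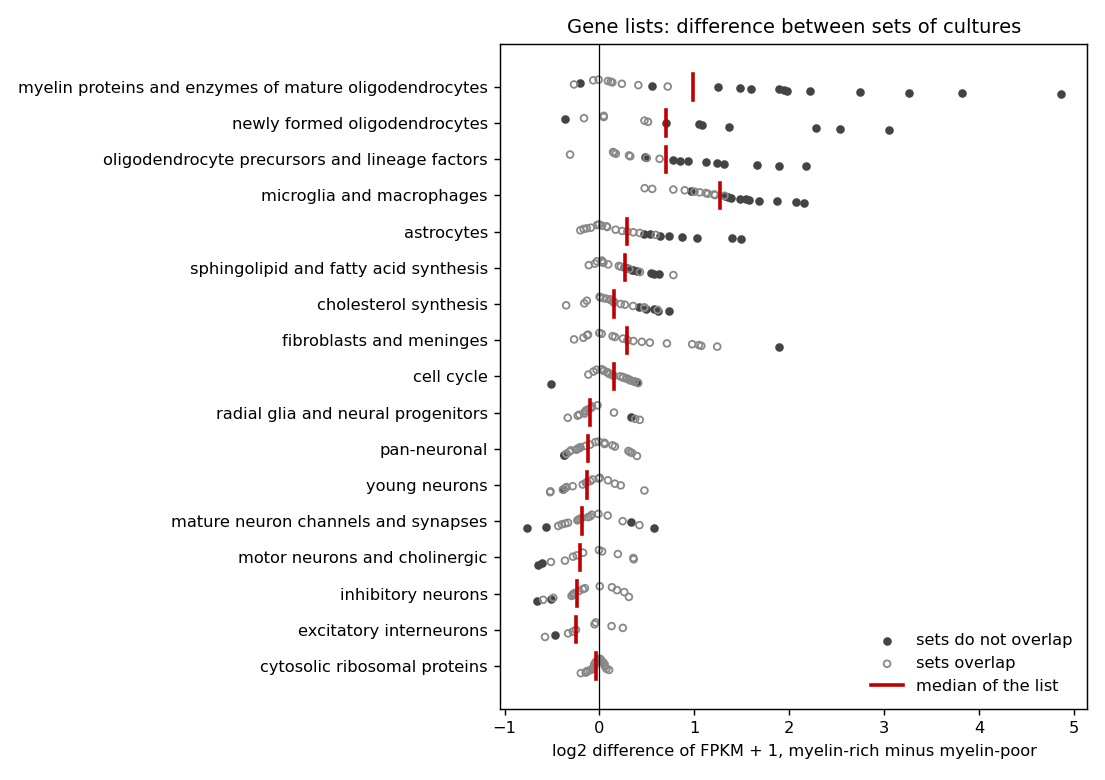
Log2 difference of FPKM + 1, myelin-rich minus myelin-poor, of every tested gene on 17 lists, with filled points for genes whose sets do not overlap and a red bar at each list's median. The medians are 0.99 for mature oligodendrocytes, 1.27 for microglia and -0.12 for pan-neuronal genes.

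Lipid genes differed little beside the myelin genes. Of 20 genes of sphingolipid and fatty acid synthesis 0 were 2-fold apart, but 8 lay higher without overlap and 0 lower (median 0.27). Among all genes tested, 5.51% lay higher and 7.98% lower without overlap. Scd2, a desaturase of fatty acids, ran from 408 to 541 FPKM in myelin-rich and from 270.3 to 343 FPKM in myelin-poor libraries, and the elongases Elovl6 and Elovl5 differed by 0.57 and 0.55. Of 23 genes of cholesterol synthesis 5 lay higher without overlap and 0 lower (median 0.15), with Stard4, a cholesterol carrier, at 0.73 and Sc5d, a desaturase of the pathway, at 0.62. Of 12 histone genes all stood lower on average (median -0.32) with overlapping sets. The list of 28 ribosomal protein genes had a median of -0.04, which became 0.00 after scaling by the median of ratios. On the lists of ependymal, floor plate, endothelial, pericyte, cartilage, red blood cell, sensory neuron, brain regional, glycolysis, respiratory chain, heat shock, ATF4, endoplasmic reticulum chaperone, NRF2 and matrix genes 0 were 2-fold apart without overlap, and the medians ran from -0.14 to 0.30. Col2a1, a cartilage collagen (-1.01), and Pfkp, a glycolytic kinase, reached 2-fold lower levels with overlapping sets.

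Genes on none of the lists were also among the largest differences. Pnlip, the digestive lipase of the pancreas, ran from 16.3 to 29.2 FPKM in myelin-rich and from 0.97 to 1.70 FPKM in myelin-poor libraries, a log2 difference of 3.35. Scrg1 differed by 2.82, Plxnb3, a semaphorin receptor, by 2.72 and Ppp1r16b, a regulatory subunit of protein phosphatase 1, by 2.42, each without overlap. Rn28s, the 28S ribosomal RNA, ran from 2346 to 5176 FPKM in myelin-rich and from 284 to 584 FPKM in myelin-poor libraries, and all ribosomal RNA genes together held 0.561% to 1.24% of summed FPKM in myelin-rich and 0.112% to 0.309% in myelin-poor libraries. Ribosomal RNA has many copies and is meant to be removed by poly(A) enrichment, so its FPKM is uncertain and bears on library making as well as on cells.

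Lower genes were few and belonged to no shared list, apart from Chrna1. Robo3 (315564), a guidance receptor of commissural axons, ran from 6.11 to 14.8 FPKM (median 10.1) in myelin-rich and from 23.9 to 36.4 FPKM (median 29.2) in myelin-poor libraries, and it was lower in each treatment group, by 1.61 with polyP, 1.37 with mutSOD1-ACM, 1.64 with wtSOD1-ACM and 1.19 in controls. Chrna1, the alpha subunit of the muscle acetylcholine receptor, differed by -1.30 and was the 1 of 5 skeletal muscle genes that was at least 2-fold lower. Myh9l1 (-1.93), the long non-coding Lnc215 (-1.48), Rtbdn (-1.36), Zmynd10, a dynein assembly factor of motile cilia (-1.33), Isg20, an interferon-induced exonuclease (-1.29), Tspan1 (-1.20), Spag4 (-1.17), the transcription factor Foxh1 (-1.15), Asmt, the last enzyme of melatonin synthesis (-1.10), and Prr22 (-1.04) were the other genes among the 12 largest with a mean of at least 5 FPKM in the higher set. Of the 20 lower genes 19 were on no list, and 11 were also counted against each kind of myelin-rich library alone.

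Hox genes, which record position along the head-to-tail axis, differed between the sets by blocks of paralog number. The differences did not run in paralog order within groups 2 to 6 or 7 to 10. On the lists used elsewhere, 6 of 10 genes of cervical and brachial levels lay lower without overlap (median -0.64). Of 8 genes of thoracic and lumbar levels 2 lay higher (median -0.04). Among all genes tested, 7.98% lay lower and 5.51% higher without overlap. The grouping by paralog number was made after the values were seen. Of 9 tested genes of paralog groups 2 to 6, 8 lay lower in the myelin-rich set without overlap (median -0.66) and only Hoxa6 overlapped (-0.30). Hoxd3 ran from 5.68 to 8.17 FPKM in myelin-rich and from 12.5 to 16.5 FPKM in myelin-poor libraries. Hoxb5 ran from 34.4 to 44.3 FPKM in myelin-rich and from 62.0 to 73.5 FPKM in myelin-poor libraries. Of 9 genes of groups 7 to 10, 0 separated the sets (median -0.11).

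The 3 tested genes of groups 11 and 12 lay higher without overlap. Hoxc12 (300262), a gene of the posterior end of the C cluster, ran from 4.74 to 11.9 FPKM (median 7.89) in myelin-rich and from 0.06 to 0.36 FPKM (median 0.21) in myelin-poor libraries. Hoxc11 differed by 1.55 and Hoxa11 by 0.85. The direction was the same in all 4 treatment groups for these 3 genes and for the 9 of groups 2 to 6, with Hoxc12 at 2.75 in polyP, 2.68 in mutSOD1-ACM, 3.35 in wtSOD1-ACM and 2.77 in control cultures. The part of the axial level of the tissue in the glial difference was not tested.

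**Figure D3:**
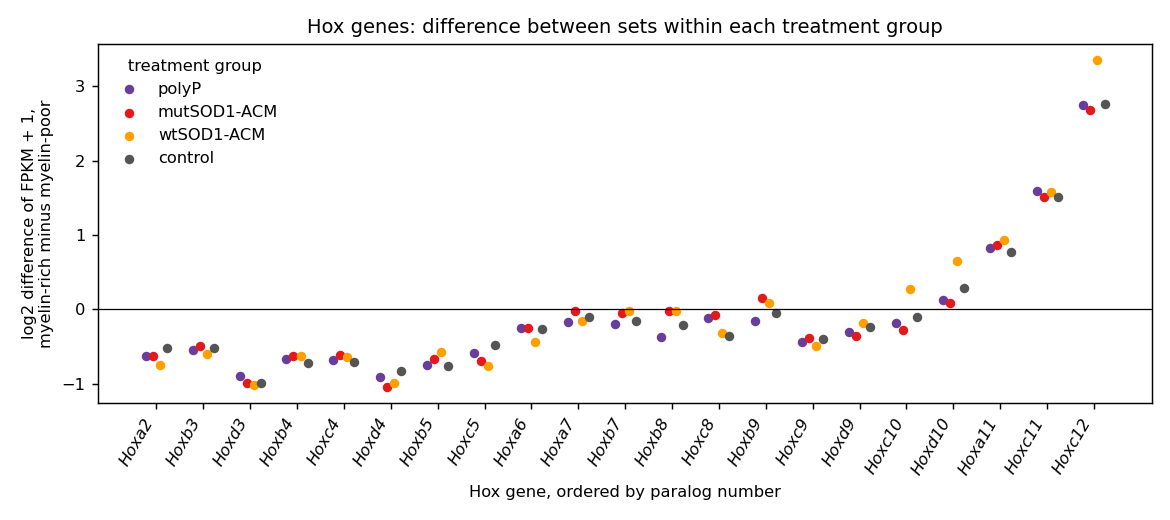
Log2 difference of FPKM + 1, myelin-rich minus myelin-poor, of 21 Hox genes ordered by paralog number, with 1 point for each treatment group. Genes of groups 2 to 6 lie below 0 and those of groups 11 and 12 above it in all 4 groups.

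The myelin-rich libraries were less alike than the myelin-poor ones. The median over genes of the residual SD within treatment, on the log2 scale, was 0.124 in the myelin-rich and 0.082 in the myelin-poor set, and 9165 genes (77.1%) were more variable in the myelin-rich set. The genes with the largest residual SD included Gldn, Postn, Lum and Igf2 in the myelin-rich set, and were Hba1, Hba2, Hbe1, Rn5-8s and Mir2985 in the myelin-poor set. The first 3 of the myelin-poor list are haemoglobin chains, with near-identical copies that may share reads, and Hba1 ran from 8.40 to 246 FPKM among myelin-poor libraries.

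In the myelin-rich set these genes followed the split in Mbp at 250 FPKM, a division added after the data were seen. Gldn, gliomedin of the nodes of Ranvier, is on the Schwann cell list. It stood at 1.09 to 3.67 FPKM in the 5 libraries with less Mbp and at 38.9 to 59.8 FPKM in the 6 with more. In the myelin-poor set it stood at 3.82 to 17.5 FPKM. Postn, a matrix protein, stood at 8.76 to 15.5 FPKM in those 5 and at 102 to 157 FPKM in those 6, against 18.2 to 25.2 FPKM in the myelin-poor set. Lum, a matrix proteoglycan, went the other way, at 26.7 to 33.2 FPKM in the 5 and 2.26 to 3.10 FPKM in the 6, against 3.00 to 4.82 FPKM in the myelin-poor set. Myelin-poor values of these genes thus fell between the 2 kinds or beside one of them.

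Several results above hold against both kinds and others rest on one. Of the 122 higher genes 58 were also counted against each kind alone, 61 with the 5 libraries of less Mbp and 119 with the 6 of more. Counted anew, the 5 gave 81 higher and 120 lower genes, and the 6 gave 271 higher and 18 lower. Of the mature oligodendrocyte list 10 genes were at least 2-fold higher with the 5 and 11 with the 6. Of the Schwann cell list 4 were at least 2-fold higher and 2 lower with the 5, and 8 higher and 0 lower with the 6. Of the microglia list 3 were at least 2-fold higher with the 5 (median 0.61) and 20 with the 6 (median 1.80). The summed microglial level was 180 to 281 FPKM in the 5 and 376 to 1082 FPKM in the 6, against 127 to 158 FPKM in the myelin-poor set. LOC100911498, which the RefSeq table names Xist (the RNA that silences an X chromosome in female cells), stood at 16.5 to 37.1 FPKM in the 5 and 74.5 to 145 FPKM in the 6, against 64.1 to 181 FPKM in the myelin-poor set.

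**Figure D4:**
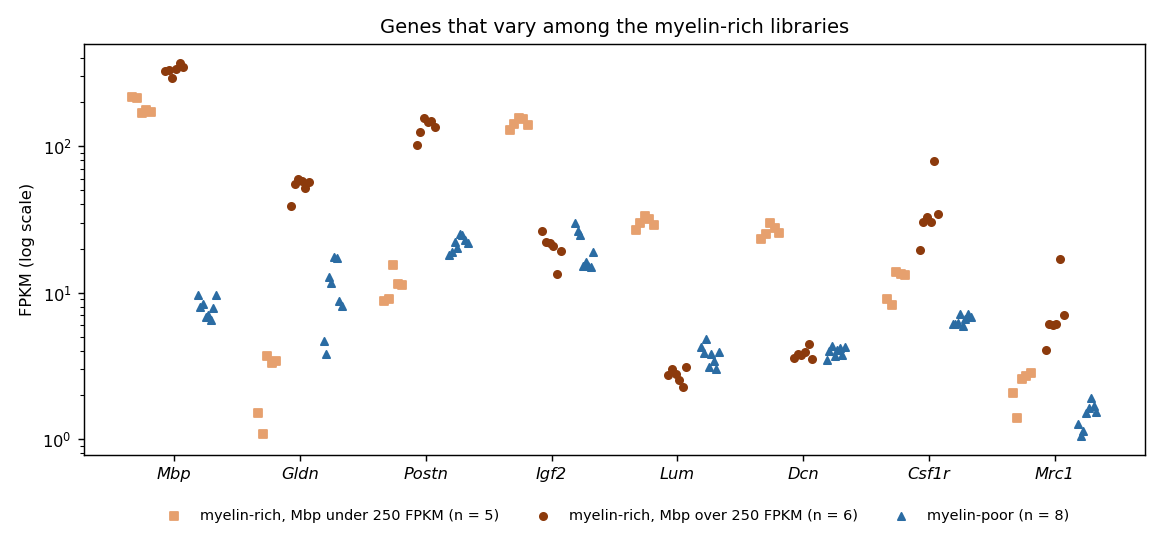
FPKM (log axis) of 8 genes in the 5 myelin-rich libraries with Mbp under 250 FPKM, the 6 with Mbp over 250 FPKM and the 8 myelin-poor libraries, with 1 point for each library. Gldn stands at 1.09 to 3.67, 38.9 to 59.8 and 3.82 to 17.5 FPKM in the 3 kinds of library.

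Immediate early genes, which neurons switch on within minutes of activity, showed no common shift (35 tested, median -0.01, a sign that turned with each scaling), but 2 were at least 2-fold higher and 0 lower. Npas4, a factor induced by calcium entry in neurons, ran from 26.7 to 47.3 FPKM (median 34.6) in myelin-rich and from 8.17 to 18.5 FPKM (median 11.5) in myelin-poor libraries, a difference of 1.40. Fosb, a partner of JUN proteins, ran from 50.2 to 75.7 FPKM (median 69.1) in myelin-rich and from 23.5 to 37.9 FPKM (median 32.3) in myelin-poor libraries, a difference of 1.04. Neither gene overlapped, and both were higher in each treatment group, least in controls (0.86 for Npas4 and 0.69 for Fosb). Fos differed by 0.74 with overlap. Without a limit on size, 4 of the 35 lay higher without overlap, Npas4, Fosb and Fosl2 (0.72) among them, and 0 lower. Over all genes tested the shares were 5.51% and 7.98%. By sign, 16 of the 35 were higher and 19 lower. Of 23 NF-kB targets 0 were 2-fold apart without overlap (median 0.23), with Il1b at 1.11 and overlapping sets, and of 16 interferon-responsive genes 1 was, Bst2 at 1.19.

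The treatment labels were not used to draw the sets, so whether a treatment effect differed between them could be tested. The interaction was fitted with limma over all 11887 genes, as the treatment effect in the myelin-rich minus that in the myelin-poor set. No gene passed an adjusted p of 0.05 in any of the 4 contrasts (0 called, 0%). At an unadjusted p under 0.05 there were 537 genes (4.52%) for polyP against control, 265 (2.23%) for wtSOD1-ACM against control, 166 (1.40%) for mutSOD1-ACM against control and 298 (2.51%) for mutSOD1-ACM against wtSOD1-ACM. The first 3 contrasts share the control libraries. With 2 or 3 libraries per set and treatment, a p that misses the threshold does not show that the effects were alike. The 2 kinds of myelin-rich library were also spread unevenly over treatments. Those with more Mbp were replicate 3 of polyP and of mutSOD1-ACM, 1 and 2 of wtSOD1-ACM, and 2 and 3 of control. Kind of library is thus partly mixed with treatment in all 4 contrasts.

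The smallest p-values for polyP against control belonged to the activity-regulated genes Egr1 and Arc. Egr1, an immediate early zinc-finger factor, stood at 27.0, 27.5 and 32.5 FPKM in polyP and 57.0, 59.7 and 69.0 FPKM in control libraries of the myelin-rich set. In the myelin-poor set it stood at 21.5 and 21.0 FPKM in polyP and 84.7 and 94.1 FPKM in control libraries. Polyphosphate libraries lay below controls in both sets, with a gap on the log2 scale of -1.07 in the myelin-rich and -2.02 in the myelin-poor set. The difference of the gaps was 0.95 (SE 0.17, 95% interval 0.59 to 1.32, limma adjusted p = 0.467). Arc, an effector of synaptic plasticity, gave -0.60 in the myelin-rich and -1.58 in the myelin-poor set, a difference of 0.98 (95% interval 0.59 to 1.36, limma adjusted p = 0.467). Lss, Nab2 and Creg1 followed with limma adjusted p of 0.927 to 0.939.

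For wtSOD1-ACM against control the smallest p-values belonged to Socs3, Cxcl3, Gpr137b (-0.64), Rangrf (-0.58) and Pmepa1 (-0.45), each with a limma adjusted p of 1. Il1b, the cytokine interleukin 1 beta, is given as a member of the NF-kB list, with Cxcl3. It stood at 18.1 and 21.2 FPKM with wtSOD1-ACM and 0.49, 3.50 and 1.24 FPKM in controls of the myelin-rich set. In the myelin-poor set it stood at 2.08 and 2.26 FPKM with wtSOD1-ACM and 0.38 and 0.31 FPKM in controls. The wtSOD1-ACM libraries lay above controls in both sets, and the difference of the log2 effects was 1.82 (95% interval 0.78 to 2.87, limma adjusted p = 1). Socs3, an inhibitor of cytokine signalling, stood at 23.3 and 24.2 FPKM with wtSOD1-ACM and 10.4, 13.6 and 13.8 FPKM in controls of the myelin-rich set, against 13.0 and 12.8 FPKM with wtSOD1-ACM and 12.8 and 13.3 FPKM in controls of the myelin-poor set. Its interaction was 0.89 (95% interval 0.51 to 1.27, limma adjusted p = 1). Cxcl3, a chemokine that attracts neutrophils, gave 1.04 (limma adjusted p = 1).

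For mutSOD1-ACM against wtSOD1-ACM, Cxcl2 gave an interaction of -1.16, Il1b of -2.04 and the growth factor Fgf7 of 1.24, each with a limma adjusted p of 0.999. Both wtSOD1-ACM libraries of the myelin-rich set were of the kind with more Mbp and more microglial RNA. MutSOD1-ACM had 1 such library of 3. Summed microglial RNA ran from 376 to 1082 FPKM over all 6 libraries of that kind, which include polyP and control libraries. Treatment and kind of library are thus partly mixed in these interactions, and the fit held no term for kind. For mutSOD1-ACM against control the smallest p belonged to Ccdc115 (-0.36, limma adjusted p = 1).

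**Figure D5:**
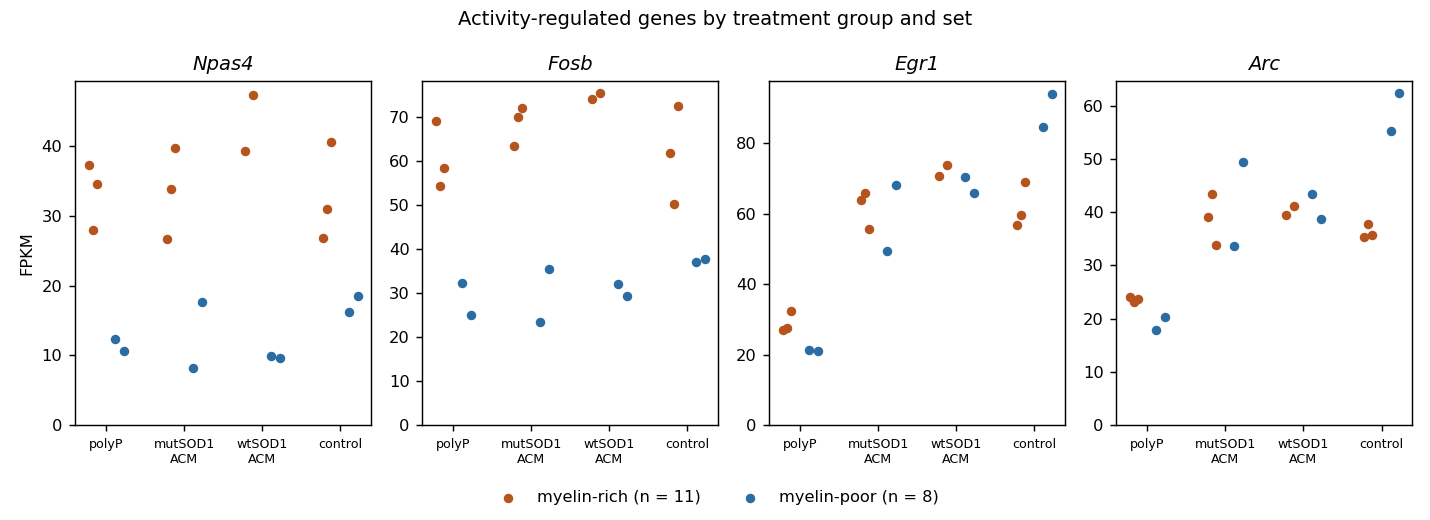
FPKM of Npas4, Fosb, Egr1 and Arc by treatment group, with myelin-rich libraries left of myelin-poor ones and 1 point for each library. Npas4 and Fosb are higher in every myelin-rich library, while Egr1 in controls stands at 57.0 to 69.0 FPKM in the myelin-rich and 84.7 to 94.1 FPKM in the myelin-poor set.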

How the data were processed

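The deposited table holds FPKM per gene and library, made by the authors and given with 2 decimals for 15597 genes, per the file headers. HISAT was used on the rat build rn6, per the submitters' processing notes. Its version, the FPKM tool and the annotation release are not given in these sources. Columns were matched to libraries by name. Genes at an FPKM of 1 or more in at least 4 libraries were kept (11887). Log2(FPKM + 1) was fitted with limma 3.58.1 (statmod 1.5.0, R 4.3.3), on treatment group and set for the differences, without a test, and on the 8 combinations of group and set for the interactions (trend and robust, two-sided, Benjamini-Hochberg over all genes). The code was tested on simulated data with 200 changed genes.

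Relative depth came from the step size of low FPKM, where 96.8% of 629 values lay within 0.1 of a whole fragment, which describes the fit. Whether replicate numbers pair the libraries is not known. Deviations of same-numbered libraries from the mean of their group and set correlated from -0.494 to 0.569. With 2 or 3 libraries behind each mean, the deviations constrain one another, so these correlations cannot decide it.

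The sets, the 42 gene lists (the mitochondrially encoded one had 0 genes in the table) and the rules were chosen with earlier results of these data known. Named are the 12 largest counted differences each way with a mean FPKM of 5 or more (identifier-only symbols left out), a fixed set of cell type genes, up to 4 members of each list with the largest differences, per interaction the 5 genes and up to 3 immediate early and NF-kB genes with the smallest p, and the 5 most variable genes of each set. Other genes were chosen after their values were seen. A few genes under these rules are not reported here. Alternatives were other pseudocounts, filters, scalings and models, and leaving out each library.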

Additional observations from a re-analysis of the deposited data

Results flagged for a closer look

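Of 45 genes checked among the 8 myelin-poor libraries, 1 held a library far from the others. Sox10 stood at 18.3 FPKM in replicate 4 of polyP, against 6.58 to 11.9 FPKM in the other myelin-poor libraries. Chance alone marks about 1 such group in 20.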

How the results depend on the processing

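The count of 122 higher genes stayed within 1.5 times under other pseudocounts, filters and scalings, with 110 to 145 genes when 1 library was left out, and became 22 at a 4-fold threshold. The 20 lower genes became 49 with a pseudocount of 0.1, 13 with median of ratios scaling and 0 at a 4-fold threshold. Without 1 library they numbered 19 to 33, with 31 without polyP replicate 4 and 33 without control replicate 2. In alternatives chosen after seeing the data, only myelin-rich libraries with Mbp under 250 FPKM gave 81 higher and 120 lower genes, and only those with Mbp over 250 FPKM gave 271 higher and 18 lower. The cause was not tested. With no filter on low values limma called 3 interactions each for wtSOD1-ACM minus control and mutSOD1-ACM minus wtSOD1-ACM, all of them microRNA precursors (Mir218-2, Mir30b and Mir3555) at no more than 1.33 FPKM. The replicate block called 9 for mutSOD1-ACM minus wtSOD1-ACM and 0 in the other 3 contrasts. Whether the numbers pair the libraries is not known. Every other interaction count, leaving out each library included, was 0. The interaction of Egr1 ranged from 0.87 to 1.03 (limma adjusted p 0.0535 to 1) and that of Arc from 0.89 to 1.07 (0.0504 to 1). None of the 910 checks of named interaction genes moved one past the threshold. Of the checks of named set differences 98 moved beyond the spread and 4843 did not, and of those of list medians 6 moved, all in the split at 250 FPKM, and 1074 did not. Low FPKM limit Mag, Enpp6 and Hoxc12 in the myelin-poor set, and the counting error there is unknown.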

Other observations

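Genes outside the lists also separated the sets, chosen here after their values were seen. Tppp, a tubulin polymerization protein of oligodendrocytes, ran from 8.77 to 15.3 FPKM in myelin-rich and from 1.90 to 3.78 FPKM in myelin-poor libraries. Tnr, a matrix glycoprotein made by oligodendrocytes, differed by 1.99, Apod, a lipid carrier, by 2.03, Kcnj10, a glial potassium channel, by 1.34, Omg, the oligodendrocyte-myelin glycoprotein, by 1.34 and Gltp, a glycolipid transfer protein, by 1.25. Each of these ran without overlap.

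Genes of phagocytes outside the microglia list did the same. Mpeg1, a pore-forming protein of macrophages, ran from 16.1 to 128 FPKM in myelin-rich and from 10.5 to 13.7 FPKM in myelin-poor libraries. Gpnmb, a glycoprotein of lysosomes, ran from 72.0 to 470.0 FPKM in myelin-rich and from 47.4 to 61.5 FPKM in myelin-poor libraries. Igf1, a growth factor, differed by 1.41, Adgre1, the F4/80 antigen, by 1.36 and Cybb, the catalytic subunit of the phagocyte oxidase, by 1.09. These 11 genes were picked from the 122 and describe the same libraries, so they add no independent evidence.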
